A study of Rattus norvegicus with 15 samples.

Results

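The genes described here encode the proteasome of rat lung: the subunits of its core particle, of its regulatory caps and of its activators, with the inhibitor, the assembly chaperones and binding partners whose symbols share the same stem. They were chosen by symbol, as the rows whose name starts with Psma, Psmb, Psmc, Psmd, Psme, Psmf or Psmg followed by a digit, which gave 50 of 22250 genes. Values are FPKM, fragment counts corrected for gene length and for the library's mapped total. Genes that reached 1 FPKM in 5 or more of the 15 libraries were tested, which 47 of the 50 did. Of the 3 others, Psma8, which encodes a testis alpha subunit, and Psmb11, which encodes the thymus catalytic subunit, had at most 0.166 FPKM in any library. Psme1, the partner of Psme2 in the inducible activator, is listed at 0 in all 15 libraries.

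Gene expression was measured by RNA sequencing of lung from wild-type rats in 15 libraries. The WDD group of 5 libraries came from animals dosed through the trachea with lipopolysaccharide and smoke, a model of chronic obstructive pulmonary disease, and given Wendan Decoction (WDD), a Chinese herbal formula, into the stomach. The COPD group of 5 received the tracheal dosing with lipopolysaccharide and smoke without the decoction, and the control group of 5 held normal animals. The labels state no strain, age, sex, dose or duration, nor whether libraries share an animal, and p-values therefore describe the spread among these samples alone.

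The proteasome is the protease that degrades proteins tagged with ubiquitin. Its barrel-shaped core, the 20S particle, has outer rings of alpha subunits and inner rings of beta subunits, of which Psmb5, Psmb6 and Psmb7 carry the constitutive proteolytic sites. The 19S cap, made of the Psmc ATPases and the Psmd non-ATPases, recognises ubiquitin chains, unfolds the substrate and feeds it into the core. Interferon gamma induces Psmb8, Psmb9 and Psmb10, which replace Psmb5, Psmb6 and Psmb7 in newly built cores and form the immunoproteasome, and the activator of Psme1 and Psme2, which docks on the ends of the core. The immunoproteasome is abundant in leukocytes and yields many of the peptides that MHC class I molecules present.

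The promoters of the inducible genes are shown because the interferon-stimulated element is a known route of their induction. Each sequence is the RefSeq promoter of the rat assembly GRCr8, from 250 bases before to 50 bases after the annotated start and written along the gene's own strand. Capitals mark matches on either strand to the interferon-stimulated element, searched as a pair of GAAA boxes with any 2 bases between them (Psme2, Psmb10, Psmb8), to TTCNNNGAA, a STAT site (Psmb8), or to TGACNNNGC, the antioxidant element (Psmb5). The promoters lie at chr15:33052702-33053001, minus strand (Psme2), chr19:50743243-50743542, minus strand (Psmb10), chr20:4656982-4657281, minus strand (Psmb8), chr20:4668750-4669049, plus strand (Psmb9) and chr15:32047330-32047629, minus strand (Psmb5).
Psme2: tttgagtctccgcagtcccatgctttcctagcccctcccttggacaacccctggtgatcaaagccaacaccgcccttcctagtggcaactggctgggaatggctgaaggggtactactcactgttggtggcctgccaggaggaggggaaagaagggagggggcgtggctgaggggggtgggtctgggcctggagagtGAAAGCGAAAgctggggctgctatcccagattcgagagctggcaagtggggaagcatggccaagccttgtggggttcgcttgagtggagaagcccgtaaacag
Psmb10: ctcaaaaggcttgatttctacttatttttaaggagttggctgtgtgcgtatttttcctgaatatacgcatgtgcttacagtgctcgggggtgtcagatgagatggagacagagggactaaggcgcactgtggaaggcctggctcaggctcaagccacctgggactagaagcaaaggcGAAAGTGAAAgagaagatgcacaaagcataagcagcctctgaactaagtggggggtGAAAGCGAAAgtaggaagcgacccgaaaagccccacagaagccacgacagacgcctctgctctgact
Psmb8: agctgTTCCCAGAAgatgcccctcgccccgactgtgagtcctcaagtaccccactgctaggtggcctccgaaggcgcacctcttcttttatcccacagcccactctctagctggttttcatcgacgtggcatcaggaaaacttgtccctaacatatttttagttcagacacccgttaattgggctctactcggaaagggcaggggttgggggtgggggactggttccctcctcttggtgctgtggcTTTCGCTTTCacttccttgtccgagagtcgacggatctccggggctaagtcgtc
Psmb9: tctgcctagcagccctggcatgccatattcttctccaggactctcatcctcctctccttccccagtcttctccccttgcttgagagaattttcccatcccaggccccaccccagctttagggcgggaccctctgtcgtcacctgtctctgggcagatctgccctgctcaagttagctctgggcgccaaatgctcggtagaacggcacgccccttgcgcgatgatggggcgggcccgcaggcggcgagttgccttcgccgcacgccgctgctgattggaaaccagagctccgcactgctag
Psmb5: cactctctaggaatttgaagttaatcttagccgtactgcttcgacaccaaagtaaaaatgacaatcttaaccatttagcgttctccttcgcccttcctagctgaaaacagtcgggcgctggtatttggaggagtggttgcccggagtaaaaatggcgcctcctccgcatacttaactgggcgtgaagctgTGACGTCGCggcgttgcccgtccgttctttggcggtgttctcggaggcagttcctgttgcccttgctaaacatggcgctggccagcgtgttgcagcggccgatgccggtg

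Of the 50 genes, 45 matched a RefSeq promoter by symbol, and 7 of the 45 held the interferon-stimulated element within these 300 bases, against 3.92% of all 33469 RefSeq promoters of that length. Among the inducible genes 3 of 5 held it. Psme2 held it from base -53 to -44 relative to the start, Psmb10 from -73 to -64 and again from -17 to -8, and Psmb8 from -4 to 5, on the opposite strand. Psmb9 and Psme1 had no match to any of the motifs searched. Among the 38 constitutive genes with a promoter, 4 held that element: Psma4, Psmb3, Psmd7 and Psmg4. TTCNNNGAA was found in 4 of the 45 (8.874% of all promoters) and GGGNNTTCC, an NF-kappaB site, in 2 of the 45 (5.922%). Its longer decamer form was found in 0 of the 45 (0.362% of all promoters). TGACNNNGC was found in 8 of the 45, none of them inducible, and in 12.065% of all promoters; Psmb5 and Psmb6 were among the 8. These motifs were searched on both strands and do not overlap in the genes shown. A match describes the letters in the window and is not a measurement of binding. In the RefSeq gene order Psmb8, Tap1 and Psmb9 are neighbours in the MHC region of chromosome 20, and Psme1 and Psme2 are neighbours on chromosome 15.

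The libraries of the groups differed in makeup as a whole, which bears on every value below. Genes of the mitochondrial genome took 21.7% ± 2.90 of all FPKM in WDD lungs, 44.9% ± 12.4 in COPD lungs and 8.11% ± 1.94 in control lungs (mean ± SD, n = 5 each), and 65.0% in the library COPD 1. On the log2(FPKM + 1) scale, the median gene of the 13172 tested stood 0.81 lower in COPD than in control lungs, 0.54 higher in WDD than in COPD lungs and 0.23 lower in WDD than in control lungs. Fold changes are given as deposited, and positions relative to that median or values after median-of-ratios scaling of the libraries are set beside them. Relative depth, read from steps between low FPKM values, ran from 0.880 in COPD 4 to 1.11 in COPD 2 with control 2 as 1; read totals were not analysed here. The lung epithelial markers were found in all groups, with a summed level of 38184 to 59767 FPKM in WDD, 5146 to 25441 in COPD and 28138 to 39725 in control lungs. Neutrophil markers summed to 90.3 to 455 FPKM in WDD, 11575 to 42815 in COPD and 54.1 to 105 in control lungs. In such bulk samples a smaller number of cells of a type and less RNA per cell cannot be told apart.

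Shares were taken over the 5 inducible and 43 constitutive genes, leaving out the binding partners Psmc3ip and Psme3ip1. As a share of the FPKM of nuclear genes, these genes together held 0.557% ± 0.0196 in WDD lungs, 0.687% ± 0.0483 in COPD lungs and 0.475% ± 0.0367 in control lungs (mean ± SD, n = 5 each). As a share of all FPKM, mitochondrial genes included, they held 0.436% ± 0.0177 in WDD, 0.376% ± 0.0792 in COPD and 0.437% ± 0.0298 in control lungs. The order of the groups thus differs between the 2 denominators: COPD lungs were highest on the first and lowest on the other. Within the 20S core, which holds each subunit in equal number, levels per length were far from equal. The highest constitutive subunit exceeded the lowest 16.2 ± 2.88 times in WDD, 16.3 ± 4.31 times in COPD and 9.52 ± 0.346 times in control lungs. Psma4 was the lowest in every library except control 3, control 4 and control 5, where Psmb7 was.

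**Figure D1:**
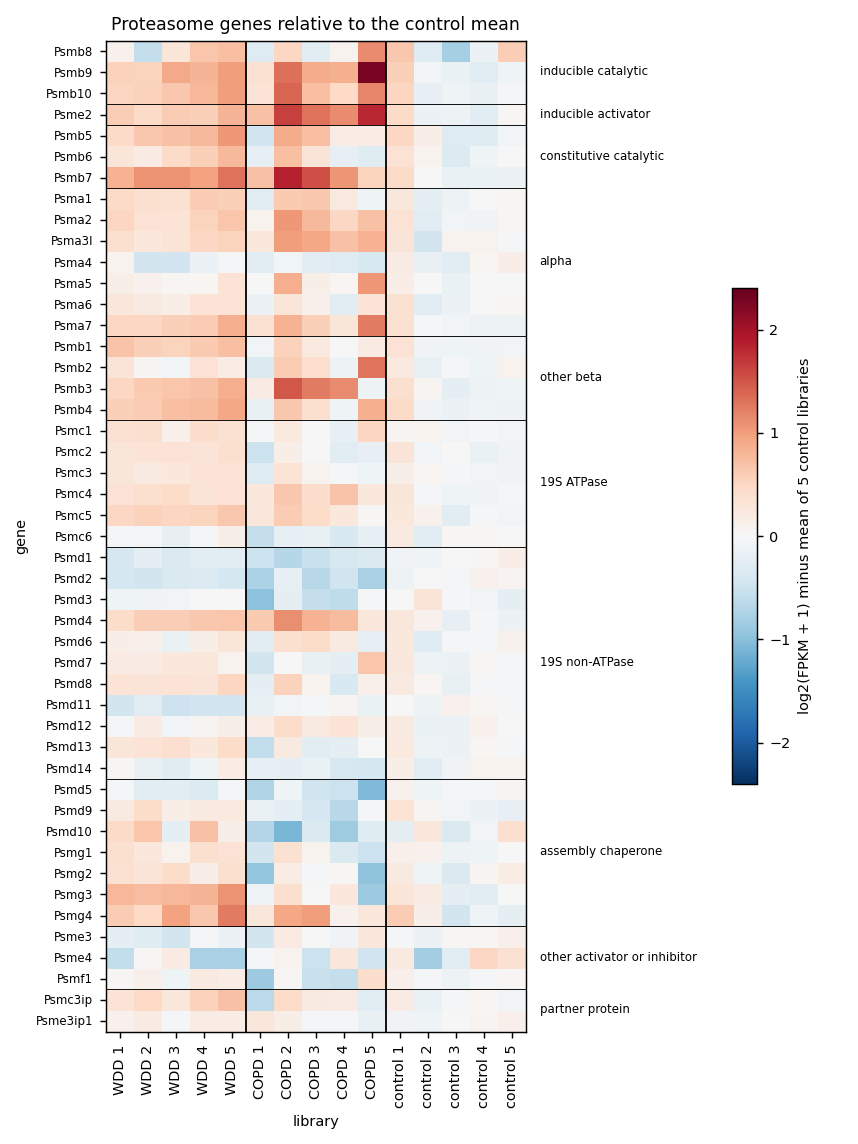
Levels of the 47 tested proteasome genes in each library (columns: WDD, COPD and control, 5 libraries each), as log2(FPKM + 1) minus the mean of the 5 control libraries, ordered by role. Psme2, Psmb9, Psmb10 and Psmb7 are high throughout the WDD and COPD columns, Psmd1 and Psmd2 are low in both, and COPD 1 and COPD 5 differ from the other COPD libraries in many rows.

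The first comparison, COPD against control, sets animals exposed to lipopolysaccharide and smoke against normal animals. The proteasome genes moved in both directions: of 47 tested, 14 were higher in COPD lungs, 6 were lower and 27 did not pass (limma, adjusted p under 0.05). Over all 13172 genes, 8.23% were called higher and 66.4% lower. All 47 lay above the median of all genes, and their own median was a log2 fold change of 0.07, which is 0.88 above it. The inducible genes were among the largest increases, with 3 of 4 tested called higher (Psme2, Psmb9 and Psmb10) and Psmb8 not passing. Of the 41 constitutive genes 11 rose and 6 fell. With libraries scaled by median of ratios, 46 of the 47 were higher and 0 lower, against 30% and 32.6% of all genes, so the 14 calls higher remained and the 6 calls lower did not. Quantile normalisation gave 34 higher and 1 lower (28.3% and 29.5% of all genes), scaling to the sum without mitochondrial genes 21 and 3 (11.2% and 59.3%), and leaving out COPD 1 and COPD 5 gave 18 and 7 (12.3% and 64%).

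Psme2 encodes the beta subunit of the inducible activator, known as PA28. WDD lungs had 91.0, 82.9, 92.8, 89.9 and 107 FPKM, COPD lungs 99.0, 190.3, 149, 134 and 213 FPKM and control lungs 83.6, 54.9, 55.4, 50.4 and 61.6 FPKM. Every COPD library stood above every control library, and COPD 1 was the lowest of its group. The mean was 157 ± 45.3 FPKM in COPD and 61.2 ± 13.2 FPKM in control lungs (SD, n = 5 each), a log2 fold change of 1.32 ± 0.19 (± SE, adjusted p = 9.95e-06, limma), the largest among the 47. It stayed between 1.198 and 1.473 with any single library left out. Between WDD and COPD lungs Psme2 fell by 0.71 ± 0.19 on the log2 scale (adjusted p = 0.00403, limma), although COPD 1 at 99.0 FPKM lay within the WDD range. WDD lungs remained above control lungs by 0.61 ± 0.19 (adjusted p = 0.0184, limma), a call lost without WDD 5 (0.56, adjusted p = 0.0505) or without control 4 (0.55, adjusted p = 0.0530). RefSeq annotates 3 Psme2 pseudogenes, so fragments may be shared with near-identical copies.

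Psmb9, also known as LMP2, is the inducible replacement of Psmb6. WDD lungs had 55.8, 55.1, 71.5, 66.9 and 77.1 FPKM, COPD lungs 49.1, 96.1, 70.4, 69.0 and 188 FPKM and control lungs 56.7, 36.2, 33.7, 31.6 and 34.9 FPKM. COPD 5 was the highest of all 15 libraries, while COPD 1 lay below control 1, the highest control. Psmb9 was 1.14 ± 0.27 higher in COPD than in control lungs (log2 ± SE, adjusted p = 0.00117, limma), and 0.86 without COPD 5. WDD lungs differed from COPD lungs by -0.38 ± 0.27 (adjusted p = 0.227, limma), with a 95% interval of -0.96 to 0.19. This difference did not pass as deposited; after median-of-ratios scaling it was -1.03 (adjusted p = 0.00960, limma). WDD lungs were 0.76 ± 0.27 above control lungs (adjusted p = 0.0360, limma), a call lost when any of WDD 3, WDD 4, WDD 5, control 2, control 3, control 4 or control 5 was left out (0.70 to 0.75, adjusted p = 0.0648 to 0.0829).

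Psmb10, also known as MECL-1, replaces Psmb7. WDD lungs had 91.4, 93.8, 101, 111 and 128 FPKM, COPD lungs 80.7, 169, 106, 89.0 and 145 FPKM and control lungs 92.1, 56.0, 59.1, 56.0 and 62.3 FPKM. The COPD and control groups overlapped because COPD 1 and COPD 4 lay below control 1. The log2 fold change was 0.82 ± 0.20 between COPD and control lungs (adjusted p = 0.00159, limma) and 0.70 ± 0.20 between WDD and control lungs (adjusted p = 0.0123, limma). Between WDD and COPD lungs it was -0.12 ± 0.20, with a 95% interval of -0.55 to 0.31 (adjusted p = 0.617, limma), and -0.77 after median-of-ratios scaling (adjusted p = 0.00538, limma).

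Psmb8, also known as LMP7, replaces Psmb5 and varied most within groups. WDD lungs had 27.4, 16.7, 31.3, 40.9 and 42.9 FPKM, COPD lungs 20.4, 36.4, 21.0, 27.0 and 57.2 FPKM and control lungs 40.8, 20.4, 14.3, 23.1 and 38.8 FPKM. The groups overlapped throughout, and the controls alone spanned 14.3 to 40.8 FPKM. Its log2 fold changes were 0.22 ± 0.33 (95% interval -0.47 to 0.92) between COPD and control lungs, 0.01 ± 0.33 (-0.68 to 0.71) between WDD and COPD lungs and 0.24 ± 0.33 (-0.46 to 0.93) between WDD and control lungs, with adjusted p = 0.546, 0.975 and 0.610 (limma). These intervals, as deposited, leave room for a change of Psmb8 in either direction. After median-of-ratios scaling Psmb8 was called higher in COPD than in control lungs (1.12, adjusted p = 0.0107, limma). Whether the change of Psmb8 differed from that of Psmb9 was not tested.

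The constitutive catalytic subunits did not move as a block as deposited. After median-of-ratios scaling 3 of 3 were higher in COPD than in control lungs (30% of all genes). In WDD against control lungs that scaling also gave 3 higher (15.7% of all genes). In WDD against COPD lungs it gave 0 higher and 1 lower (23.3% and 21.4% of all genes). WDD lungs had 24.8, 29.4, 29.6, 27.2 and 34.4 FPKM, COPD lungs 22.6, 51.0, 40.9, 29.0 and 19.97 FPKM and control lungs 18.9, 13.4, 11.9, 12.0 and 12.1 FPKM for Psmb7, the subunit with trypsin-like activity. Every COPD library and every WDD library exceeded every control library. Its log2 fold change was 1.14 ± 0.22 between COPD and control lungs (adjusted p = 0.000182, limma), -0.09 ± 0.22 between WDD and COPD lungs (adjusted p = 0.740, limma) and 1.05 ± 0.22 between WDD and control lungs (adjusted p = 0.00141, limma). Its inducible replacement Psmb10 stood at 0.82, -0.12 and 0.70 in the same comparisons. After median-of-ratios scaling Psmb7 was lower in WDD than in COPD lungs (-0.72, adjusted p = 0.00369, limma).

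For Psmb5, the subunit with chymotrypsin-like activity, WDD lungs had 26.0, 29.7, 30.8, 32.5 and 39.1 FPKM, COPD lungs 13.3, 35.1, 31.5, 21.1 and 21.2 FPKM and control lungs 26.6, 20.7, 14.8, 15.1 and 17.8 FPKM. It was higher in WDD than in control lungs by 0.72 ± 0.23 (adjusted p = 0.0184, limma), a call lost without WDD 5, control 3 or control 4 (0.65 in each case, adjusted p = 0.0513 to 0.0526). Between COPD and control lungs it differed by 0.30 ± 0.23 (adjusted p = 0.231, limma), and without COPD 1 by 0.49 (adjusted p = 0.0339). For Psmb6, which carries the caspase-like site, WDD lungs had 75.6, 71.2, 85.1, 92.6 and 106 FPKM, COPD lungs 54.1, 103, 77.1, 53.6 and 50.2 FPKM and control lungs 78.5, 65.8, 48.9, 57.9 and 62.2 FPKM. The groups overlapped, and its log2 fold changes of 0.07 (COPD against control), 0.39 (WDD against COPD) and 0.46 (WDD against control) did not pass as deposited (adjusted p = 0.763, 0.0908 and 0.0765, limma). After median-of-ratios scaling Psmb5 (1.19) and Psmb6 (0.98) were called higher in COPD than in control lungs. Psmb6 (0.73) was then also called higher in WDD than in control lungs.

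**Figure D2:**
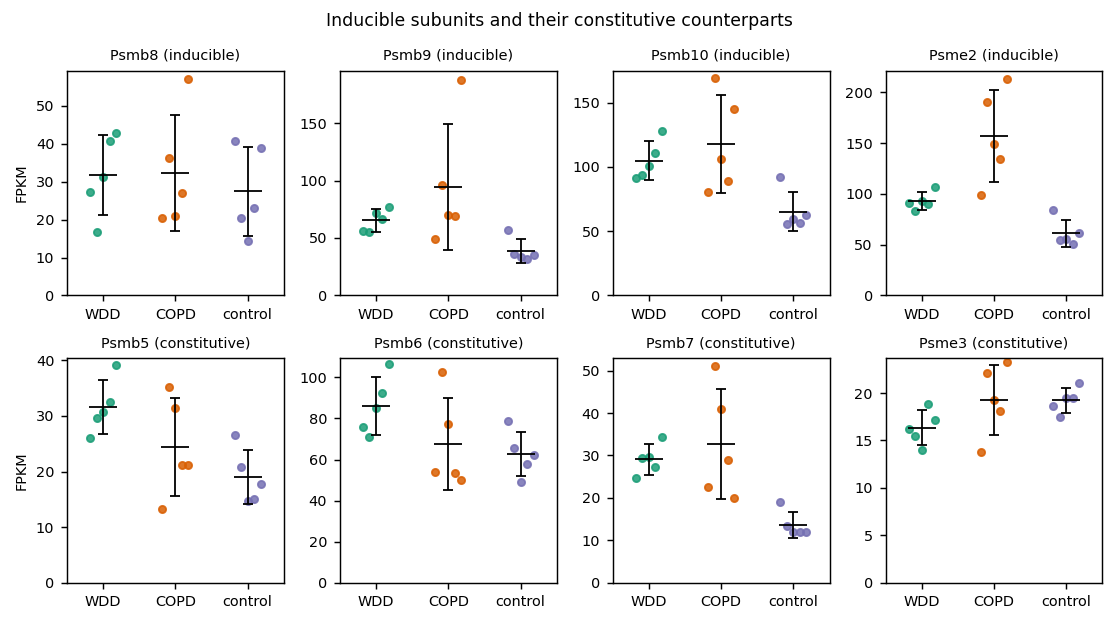
FPKM of the inducible Psmb8, Psmb9, Psmb10 and Psme2 (upper row) and of Psmb5, Psmb6, Psmb7 and Psme3 (lower row) in each library of WDD, COPD and control lungs; points are libraries, horizontal marks and bars the mean ± SD (n = 5). Psme2 and Psmb7 separate COPD from control lungs without overlap, COPD 5 stands at 188 FPKM for Psmb9, and Psmb8 and Psme3 overlap across all groups.

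The ratio of each inducible subunit to the one it replaces, taken within a library, is free of any scaling factor of the library apart from the added 1. It was compared on the log2 scale for 3 pairs in 3 comparisons, with exact permutation tests adjusted over the 9. For Psmb9 over Psmb6 the log2 ratios were -0.43, -0.36, -0.25, -0.46 and -0.46 in WDD, -0.14, -0.10, -0.13, 0.36 and 1.88 in COPD and -0.46, -0.85, -0.52, -0.86 and -0.82 in control lungs. The groups did not overlap: every COPD library lay above every WDD library, and every WDD library above every control library. Between WDD and control lungs the non-overlap rested on a narrow gap, between WDD 4 at -0.4623 and control 1 at -0.4636, while the other 4 control libraries lay at -0.52 or below. The ratio was higher by 1.08 ± 0.40 in COPD than in control lungs (± SE), lower in WDD than in COPD lungs (-0.77 ± 0.39) and higher by 0.31 ± 0.09 in WDD than in control lungs. Each test gave the smallest p that 5 against 5 allows (exact permutation p = 0.00794, two-sided, adjusted p = 0.0238). Psmb9 made up 43.1% ± 1.56 of the pair's FPKM in WDD, 55.8% ± 13.4 in COPD and 37.9% ± 3.21 in control lungs (mean ± SD, n = 5 each).

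COPD 5 stood apart with a Psmb9 over Psmb6 ratio of 1.88, against -0.14 to 0.36 in the other COPD libraries. Without any single library the difference between COPD and control lungs was 0.70 to 1.20 and that between WDD and COPD lungs -0.90 to -0.39, and the calls held. Without both COPD 1 and COPD 5 these were 0.74 and -0.44. Having 3 against 5 libraries limits how small p can be, and neither difference passed after adjustment (exact permutation, adjusted p = 0.0643).

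The other pairs moved differently. For Psmb8 over Psmb5 the log2 ratios were 0.07, -0.79, 0.02, 0.32 and 0.13 in WDD, 0.58, 0.05, -0.56, 0.34 and 1.39 in COPD and 0.60, -0.02, -0.04, 0.58 and 1.08 in control lungs. These overlapped, and the differences of -0.08 ± 0.38 (COPD against control), -0.41 ± 0.37 (WDD against COPD) and -0.49 ± 0.29 (WDD against control) did not pass (exact permutation, adjusted p = 0.952, 0.418 and 0.229). For Psmb10 over Psmb7 they were 1.84, 1.64, 1.73, 1.99 and 1.87 in WDD, 1.79, 1.71, 1.35, 1.59 and 2.80 in COPD and 2.22, 1.99, 2.22, 2.13 and 2.28 in control lungs. COPD 5 was again the highest, while the other 4 COPD libraries lay below all controls.

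Psmb10 over Psmb7 was lower in WDD than in control lungs (-0.35 ± 0.08, exact permutation p = 0.0159, adjusted p = 0.0357), a call lost with most single libraries left out (adjusted p = 0.0714). Between COPD and control lungs it differed by -0.32 ± 0.25 (exact permutation, adjusted p = 0.393) and by -0.56 without COPD 5 (adjusted p = 0.0286). Between WDD and COPD lungs it differed by -0.03 ± 0.26 (adjusted p = 0.952, exact permutation). Of the 3 pairs, Psmb9 over Psmb6 alone passed with the inducible member gaining in the exposed groups.

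**Figure D3:**
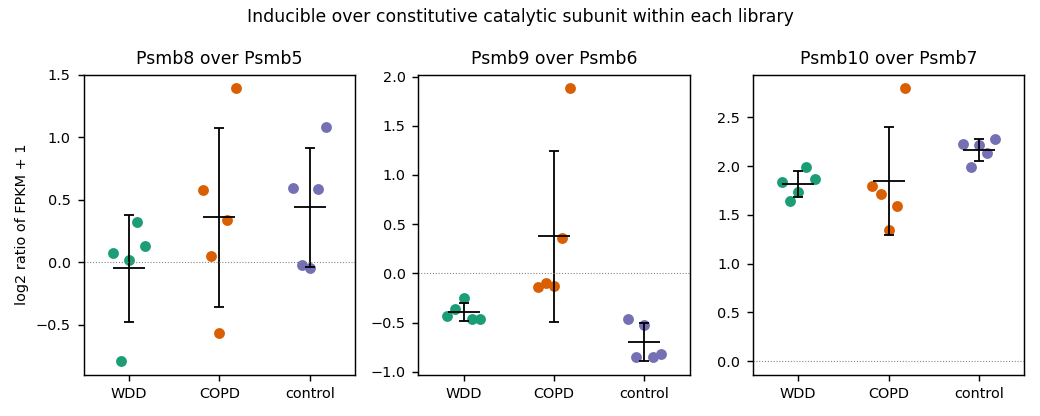
Log2 ratio of FPKM + 1 of each inducible catalytic subunit over the constitutive one it replaces, within each library of WDD, COPD and control lungs; points are libraries, marks and bars the mean ± SD (n = 5), and the dotted line marks equal levels. Psmb9 over Psmb6 separates the 3 groups without overlap, narrowly so for WDD 4 (-0.4623) and control 1 (-0.4636), Psmb8 over Psmb5 overlaps across groups, and COPD 5 is the highest COPD library in each panel.

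COPD 5 also stood apart in genes of the interferon response. Gbp2, an interferon-induced guanylate-binding protein, had 35.9, 32.8, 42.7, 36.1 and 32.8 FPKM in WDD, 54.0, 68.1, 61.4, 82.9 and 1360.1 FPKM in COPD and 46.7, 27.5, 38.0, 32.8 and 59.0 FPKM in control lungs. Tap1, the peptide transporter gene that lies between Psmb8 and Psmb9, had 22.6, 26.2, 26.9, 23.0 and 21.2 FPKM in WDD, 14.8, 32.6, 21.3, 24.01 and 201 FPKM in COPD and 28.3, 26.8, 27.5, 23.8 and 28.7 FPKM in control lungs. Apart from COPD 5, Tap1 stayed between 14.8 and 32.6 FPKM in COPD lungs, around the control range, while Psmb9 stood at 49.1 to 96.1 FPKM in the same 4 libraries and at 31.6 to 56.7 FPKM in control lungs. Irf1, a transcription factor that acts on the interferon-stimulated element, reached 533 FPKM in COPD 5 against 39.2 to 64.6 FPKM in the other COPD libraries. Ifng, which encodes interferon gamma, averaged 1.32 ± 0.651 FPKM in WDD, 0.233 ± 0.240 FPKM in COPD and 1.39 ± 0.824 FPKM in control lungs, and was lower in COPD than in control lungs (log2 fold change -0.90 ± 0.26, adjusted p = 0.00532, limma). That call was lost after median-of-ratios scaling (-0.57, adjusted p = 0.0691, limma) and under quantile normalisation (-0.13). Gbp2, Tap1, Irf1 and Ifng were chosen for mention after their values were seen. Gbp2 was 1.60 higher in COPD than in control lungs and 0.73 without COPD 5. Its call was lost without control 2, control 3 or control 4 (adjusted p = 0.0504 to 0.0666) and with only the 2 groups fitted (adjusted p = 0.0638, limma).

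Among the other activators and the inhibitor, no member passed in any comparison as deposited. After median-of-ratios scaling Psme3 (0.87), Psme4 (0.75) and Psmf1 (0.60) were called higher in COPD than in control lungs (30% of all genes). Under that scaling Psme3 and Psme4 were called lower in WDD than in COPD lungs (21.4% of all genes). Psme3, a nuclear activator related to Psme2 but not induced by interferon gamma, averaged 16.3 ± 1.84 FPKM in WDD, 19.3 ± 3.71 FPKM in COPD and 19.2 ± 1.32 FPKM in control lungs. Its log2 fold change was -0.01 between COPD and control lungs (95% interval -0.31 to 0.28), against 1.32 for Psme2 in the same libraries, and 0.87 after median-of-ratios scaling. Psme4, a large activator linked to histone degradation, ranged from 12.8 to 26.0 FPKM in WDD, 15.5 to 27.6 in COPD and 12.3 to 32.6 in control lungs. Psmf1, an inhibitor of the core, differed by -0.31 between COPD and control lungs (adjusted p = 0.162, limma) and by -0.49 without COPD 5 (adjusted p = 0.00655). The partners Psmc3ip, a meiotic recombination factor, and Psme3ip1, which binds the Psme3 activator, did not pass between COPD and control lungs (-0.01 and 0.03).

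Of the 7 tested alpha subunits, which form the gated outer rings, 4 were higher in COPD than in control lungs and 0 lower. Over all genes 8.23% were higher and 66.4% lower. Psma7 is the alpha4 subunit: WDD lungs had 157, 157, 166, 172 and 206 FPKM, COPD lungs 144, 199, 166, 137 and 262 FPKM and control lungs 145, 108, 106, 103 and 102 FPKM. COPD and control overlapped only through COPD 4 and COPD 1, which lay below control 1. Its log2 fold change was 0.65 ± 0.17 (adjusted p = 0.00258, limma). Psma3l, a symbol that RefSeq gives as a synonym of Psma3, differed by 0.75 ± 0.16 (adjusted p = 0.000464, limma), with means of 57.4 ± 10.9 FPKM in COPD and 33.8 ± 6.20 FPKM in control lungs. At the other end, Psma6 differed by 0.07 and Psma4 by -0.26, neither passing (adjusted p = 0.659 and 0.111, limma); after median-of-ratios scaling Psma4 stood at 0.61 and passed (adjusted p = 0.00155). Subunits that enter the same ring in equal number thus spanned log2 fold changes of -0.26 to 0.75.

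Of the 4 beta subunits without a proteolytic site that were tested, 1 was higher and 0 were lower as deposited (8.23% and 66.4% of all genes). Psmb3, which passed, had 114, 125, 128, 131 and 148 FPKM in WDD, 92.4, 228, 191, 177 and 73.8 FPKM in COPD and 105, 84.2, 68.6, 73.2 and 74.4 FPKM in control lungs. COPD 2, COPD 3 and COPD 4 stood far above the controls, while COPD 1 and COPD 5 lay within their range. The log2 fold change was 0.79 ± 0.25 (adjusted p = 0.00983, limma), and 1.29 without COPD 1 and COPD 5. Psmb3 has 7 annotated pseudogenes in RefSeq, the most of any member, so its fragments may be shared. Psmb2 (0.36), Psmb4 (0.32) and Psmb1 (0.18) did not pass between COPD and control lungs as deposited. Without COPD 1, Psmb2 (0.54, adjusted p = 0.0302) and Psmb4 (0.44, adjusted p = 0.0395, limma) did. After median-of-ratios scaling Psmb2 (1.28), Psmb4 (1.24) and Psmb1 (1.10) passed as higher, so 4 of the 4 were higher (30% of all genes). Quantile normalisation and the sum without mitochondrial genes also gave 4 higher (28.3% and 11.2% of all genes).

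The 19S cap divided as deposited. Of its 6 ATPases, which form the unfolding ring, 2 were higher and 1 was lower (8.23% and 66.4% of all genes). After median-of-ratios scaling 6 were higher (30% of all genes). Psmc4 was 0.45 ± 0.12 higher in COPD than in control lungs (adjusted p = 0.00333, limma), with 77.4 ± 11.1 FPKM against 56.3 ± 6.78 FPKM. Psmc5 (0.32, adjusted p = 0.0322) and Psmc6 (-0.30, adjusted p = 0.0380) passed narrowly and lost their calls when any of several libraries was left out, 5 for Psmc5 (COPD 2, COPD 3, control 3, control 4 and control 5) and 6 for Psmc6 (COPD 1, COPD 4, control 1, control 3, control 4 and control 5). After median-of-ratios scaling Psmc6 stood at 0.59 and passed as higher. Psmc2 differed by -0.17 and did not pass.

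Of the 11 non-ATPase subunits, 2 were higher and 3 lower (8.23% and 66.4% of all genes). After median-of-ratios scaling 11 were higher (30% of all genes). Psmd4, a ubiquitin receptor of the cap, had 92.3, 102, 102, 106 and 108 FPKM in WDD, 105, 148, 121, 116 and 81.7 FPKM in COPD and 82.0, 72.8, 59.1, 66.5 and 61.1 FPKM in control lungs. COPD 5, at 81.7 FPKM, was the sole COPD library within the control range. Its log2 fold change was 0.72 ± 0.15 (adjusted p = 0.000349, limma). Psmd12, a lid subunit, was higher by 0.26 (adjusted p = 0.0486, limma), a call lost without any of COPD 2, COPD 3, COPD 4, control 2, control 3, control 4 or control 5 (0.22 to 0.29).

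Psmd1 and Psmd2, the large scaffold subunits of the base, went the other way as deposited. Psmd2 had 50.8, 49.9, 53.5, 54.2 and 50.8 FPKM in WDD, 39.7, 59.0, 42.9, 48.7 and 39.3 FPKM in COPD and 62.8, 68.3, 65.7, 73.1 and 71.3 FPKM in control lungs. Psmd1 had 25.7, 29.1, 26.5, 28.3 and 28.1 FPKM in WDD, 23.5, 20.8, 23.3, 25.8 and 26.7 FPKM in COPD and 31.99, 31.6, 34.5, 34.8 and 38.1 FPKM in control lungs. For both genes every COPD library and every WDD library lay below every control library. Between COPD and control lungs Psmd2 was lower (-0.58 ± 0.12, adjusted p = 0.000418, limma) and Psmd1 (-0.49 ± 0.11, adjusted p = 0.000566, limma), but after median-of-ratios scaling both were higher (0.34 and 0.41). Relative to the median of all genes they thus fell less than most. In the same libraries a hand-written list of 21 very long housekeeping transcripts had 21 called lower (66.4% of all genes), and of 20 very short ones 8 were called higher (8.23% of all genes) and 0 lower. After median-of-ratios scaling 18 of the long ones were lower (32.6% of all genes) and 20 of the short ones higher (30%). Transcript lengths were not analysed here, and the part of length in these differences was not tested.

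Of the 7 assembly chaperones, which build the core and the cap and leave before the particle is complete, 1 was higher and 2 were lower in COPD than in control lungs. Over all genes 8.23% were higher and 66.4% lower. Psmd10, also known as gankyrin, was lower (-0.66 ± 0.21, adjusted p = 0.0107, limma), and Psmd5 (-0.57 ± 0.15, adjusted p = 0.00268, limma; -0.36 without COPD 1 and COPD 5). After median-of-ratios scaling Psmd10 stood at 0.12 and did not pass, and Psmd5 at 0.29 was called higher (adjusted p = 0.0362, limma). Psmg4 was higher by 0.51 (adjusted p = 0.04998, limma), a call lost without any of COPD 2, COPD 3, control 2, control 3, control 4 or control 5 (0.39 to 0.55). Psmg3 did not pass as deposited (-0.07) and was called higher after median-of-ratios scaling (0.77, adjusted p = 0.00133, limma). Under that scaling 6 of the 7 chaperones were higher and 0 lower (30% and 32.6% of all genes). Quantile normalisation gave 5 higher and 0 lower (28.3% and 29.5% of all genes). Across the whole family the non-overlap of groups was rarer than the calls: 2 of the 47 had every COPD library above every control library (3.99% of all genes) and 3 every COPD library below (52.3% of all genes).

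**Figure D4:**
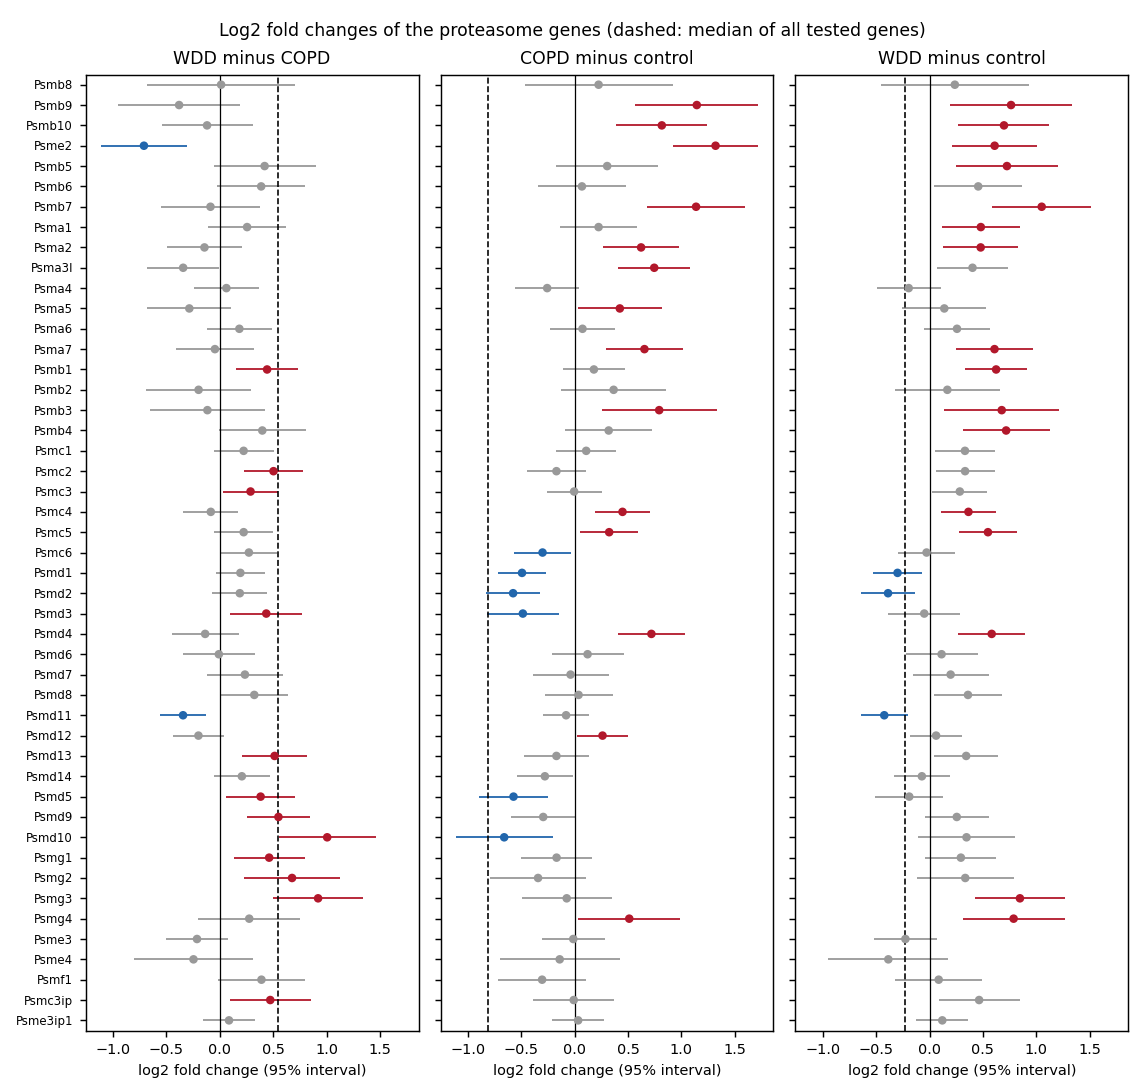
Log2 fold changes with 95% intervals of the 47 tested proteasome genes for WDD minus COPD, COPD minus control and WDD minus control (limma on log2(FPKM + 1)); red genes were called higher, blue genes lower, grey genes did not pass, and the dashed line is the median of all 13172 genes (0.54, -0.81 and -0.23). All 47 genes lie right of the dashed line for COPD minus control, 4 lie right of it for WDD minus COPD, and 43 for WDD minus control.

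The next comparison, WDD against COPD, sets exposed animals given the decoction against exposed animals without it. Of the 47 genes, 12 were higher in WDD than in COPD lungs, 2 were lower and 33 did not pass. Over all genes 57.1% were called higher and 6.63% lower, so the count of higher calls lies below the background. The median of the 47 was 0.21, which is 0.34 below the median of all genes, and 4 of the 47 lay above it. With median-of-ratios scaling 0 were higher and 28 lower, against 23.3% and 21.4% of all genes: of the 12 calls higher none remained, and 9 of these 12 genes had a value below 0. Quantile normalisation gave 0 higher and 13 lower (22.1% and 18.7%), scaling to the sum without mitochondrial genes 2 and 14 (34.5% and 11.5%), and leaving out COPD 1 and COPD 5 gave 11 and 8 (52.2% and 10.1%). The comparisons share libraries, the COPD ones with the comparison above and the WDD ones with the comparison below.

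Of the 12 higher calls 6 were assembly chaperones, out of 7 tested, where 57.1% of all genes were called higher. Psmd10 had 9.58, 11.2, 5.53, 11.5 and 7.42 FPKM in WDD, 3.69, 2.58, 5.07, 3.24 and 5.25 FPKM in COPD and 5.52, 8.25, 5.01, 6.31 and 9.04 FPKM in control lungs. Every WDD library stood above every COPD library, and the log2 fold change of 1.01 ± 0.21 (adjusted p = 0.000783, limma) was the largest of the 47. Psmg3 had 19.7, 18.99, 19.8, 20.1 and 24.2 FPKM in WDD, 10.1, 14.5, 10.9, 13.2 and 5.49 FPKM in COPD and 13.6, 12.7, 9.34, 8.85 and 10.9 FPKM in control lungs. It was higher in WDD than in COPD lungs by 0.92 ± 0.20 and than in control lungs by 0.85 ± 0.20 (adjusted p = 0.000891 and 0.00346, limma), without overlap in either comparison. Psmg2 (0.68), Psmd9 (0.55), Psmg1 (0.46) and Psmd5 (0.38) were the others called. Without COPD 1 and COPD 5, Psmg2 (0.27), Psmg1 (0.26) and Psmd5 (0.17) no longer passed, and after median-of-ratios scaling none of the 7 did, Psmd10 standing at 0.46 and Psmg3 at 0.32.

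The 2 lower calls were Psme2, given above, and Psmd11, a lid subunit. Psmd11 had 18.9, 21.5, 18.1, 18.5 and 18.5 FPKM in WDD, 23.0, 24.7, 24.9, 27.1 and 23.0 FPKM in COPD and 25.9, 23.8, 27.9, 26.8 and 25.5 FPKM in control lungs. Every WDD library lay below every COPD and every control library. It fell by 0.34 ± 0.10 relative to COPD lungs (adjusted p = 0.00855, limma) and by 0.42 ± 0.10 relative to control lungs (adjusted p = 0.00422, limma) (-0.16 and not passing after median-of-ratios scaling). Psmd11, Psmd3, Psmd9, Psmd13, Psmc3, Psmc3ip, Psmg1 and Psmg2 are named because of these calls, after their values were seen. Of the 4 inducible genes tested, 1 was lower and 3 did not pass as deposited. After median-of-ratios scaling 3 of the 4 were lower (21.4% of all genes). Quantile normalisation and the sum without mitochondrial genes also gave 3 lower (18.7% and 11.5% of all genes). Of the 7 alpha subunits 0 passed as deposited, whereas after median-of-ratios scaling 7 were lower (21.4% of all genes). Among the 19S genes, Psmc2 (0.50), Psmc3 (0.29), Psmd3 (0.44) and Psmd13 (0.51) were called higher, with values of -0.14, -0.36, -0.20 and -0.13 after that scaling. Psmb1 (0.44) and Psmc3ip (0.47) completed the 12. Over the 47, 5 had every WDD library above every COPD library (40.6% of all genes) and 1 every WDD library below (4.43%).

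WDD against control asks what remained different in treated, exposed animals. Of the 47 genes, 16 were higher in WDD than in control lungs, 3 were lower and 28 did not pass, against 6.35% and 31% of all genes. The median was 0.33, which is 0.57 above the median of all genes, and 43 of 47 lay above it. The 16 comprised 3 of 4 inducible genes, 2 of 3 constitutive catalytic subunits, 3 of 7 alpha subunits, 3 of 4 other beta subunits, 2 of 6 ATPases, 1 of 11 non-ATPase subunits and 2 of 7 chaperones. The 20S core thus held most of the higher calls, and the 3 lower calls (Psmd11, Psmd2 and Psmd1) were all in the cap. In the same comparison 17 of the 20 very short transcripts listed above were called higher and 0 lower. Of the 21 very long ones 20 were called lower and 0 higher. The part of length in the split between core and cap was not tested. With median-of-ratios scaling 31 were higher and 0 lower, against 15.7% and 17.2% of all genes. Quantile normalisation gave 26 and 1 (17.4% and 18.3%), and scaling to the sum without mitochondrial genes 13 and 4 (4.9% and 40.6%). Groups did not overlap for 15 genes with every WDD library higher (6.76% of all genes) and 3 with every WDD library lower (31.4%).

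Psmb4, a beta subunit without a proteolytic site and the highest 20S gene in all WDD and control libraries, had 188, 190.5, 206, 213 and 239 FPKM in WDD, 111, 197, 163, 116 and 226 FPKM in COPD and 172, 118, 113, 116 and 115 FPKM in control lungs. Every WDD library exceeded every control library, and the log2 fold change was 0.72 ± 0.19 (adjusted p = 0.00785, limma). Psmb1 was higher by 0.62 ± 0.14 (adjusted p = 0.00199), Psmb3 by 0.68 ± 0.25 (adjusted p = 0.0459), Psma7 by 0.61 ± 0.17 (adjusted p = 0.0108) and Psmg4 by 0.79 ± 0.23 (adjusted p = 0.0117, limma throughout). The Psmb3 call was lost with any library but control 1 left out (adjusted p = 0.0559 to 0.101). In the cap, Psmd4 (0.58), Psmc5 (0.55) and Psmc4 (0.36) were higher, Psmc4 losing its call without any of WDD 2, WDD 3, WDD 5 or control 2 to control 5. Psmd2 was lower (-0.39, adjusted p = 0.0186) and Psmd1 (-0.30, adjusted p = 0.0368); after median-of-ratios scaling they stood at -0.12 and -0.03 and did not pass. Psmd2 lost its call without control 4, and Psmd1 with any library but control 1 or control 2 left out.

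Genes that act on the proteasome from outside the family were counted from hand-written lists. Of 16 tested regulators and shuttle factors, 2 were higher and 8 lower in COPD than in control lungs, against 8.23% and 66.4% of all genes, and 12 of the 16 lay above the median of all genes. In WDD against COPD lungs 5 were higher and 2 lower, against 57.1% and 6.63% of all genes, and in WDD against control lungs 3 were higher and 3 lower, against 6.35% and 31%. After median-of-ratios scaling these counts became 12 and 1, 1 and 8, and 6 and 0. Over all genes that scaling gave 30% higher and 32.6% lower, 23.3% and 21.4%, and 15.7% and 17.2%, in the same order. Ubqln1 and Ubqln2, ubiquilins that carry tagged proteins to the proteasome, were lower in COPD than in control lungs (-1.12 ± 0.11 and -1.41 ± 0.17), and Ubqln2 and Ubqln4 were higher in WDD than in COPD lungs by 1.20 and 0.70. After median-of-ratios scaling Ubqln2 kept both calls (-0.62 and 0.66), while Ubqln1 in COPD against control (-0.22) and Ubqln4 in WDD against COPD (0.0704) did not pass. Sem1, a small 19S subunit outside the Psmd naming, was 1.18 ± 0.24 higher in WDD than in control lungs (adjusted p = 0.00136, limma).

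Pomp, the chaperone that matures the beta rings, had 16.3, 19.1, 23.3, 19.8 and 19.03 FPKM in WDD, 9.04, 16.9, 25.0, 9.58 and 10.2 FPKM in COPD and 15.96, 8.83, 11.9, 8.30 and 11.1 FPKM in control lungs. Every WDD library exceeded every control library (0.77 ± 0.24, adjusted p = 0.0183, limma), a call lost without control 4 (0.68, adjusted p = 0.0530), while COPD lungs spanned both. Zfand5, a proteasome-binding protein that stimulates degradation, was 0.94 higher in COPD than in control lungs and lower in WDD than in COPD lungs (-0.79), without overlap in either case (1.86 and -1.43 after median-of-ratios scaling); it was picked after its values were seen.

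Of 9 tested ubiquitin and unfoldase genes, 1 was higher and 5 lower in COPD than in control lungs (8.23% and 66.4% of all genes), and 5 were higher and 0 lower in WDD than in COPD lungs (57.1% and 6.63%). Median-of-ratios scaling turned these counts round, to 7 higher and 0 lower and to 0 higher and 5 lower. Over all genes it gave 30% higher and 32.6% lower, and 23.3% and 21.4%. Nsfl1c, a cofactor of the unfoldase Vcp, was higher by 0.63 in COPD than in control lungs, and by 1.55 after that scaling. Uba6, an activating enzyme, was lower in COPD than in control lungs (-1.05 ± 0.16), a call lost after that scaling (-0.33, adjusted p = 0.0531, limma) and turned in sign under quantile normalisation (0.0195). Ubxn1 was 0.74 higher in WDD than in COPD lungs and Nploc4 lower (-0.66) in WDD than in control lungs; neither passed after median-of-ratios scaling (0.0884 and -0.40).

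Of 7 tested transcription factors that drive proteasome genes, with their activating enzymes, 0 were higher and 5 lower in COPD than in control lungs, where 66.4% of all genes were lower. In WDD against control lungs 0 were higher and 4 lower, where 31% of all genes were lower. After median-of-ratios scaling the counts were 2 and 1, and 0 and 2 (30% and 32.6%, and 15.7% and 17.2%, of all genes). Ddi2, the protease that activates Nfe2l1, was lower in COPD (-1.52 ± 0.16) and in WDD (-1.01 ± 0.16) than in control lungs, and still after median-of-ratios scaling (-0.69 in COPD and -0.74 in WDD against control). Foxo4 was lower in COPD than in control lungs (-1.26 ± 0.17; -0.39 and not passing after that scaling), and 1.13 higher in WDD than in COPD lungs (0.52 after that scaling). Ngly1, which removes sugars from Nfe2l1, was 0.79 higher in WDD than in COPD lungs, and Nfya, a promoter-binding factor, was lower (-0.55) in WDD than in control lungs. Neither passed after that scaling (0.17 and -0.28).

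Of 20 genes of interferon gamma signalling and MHC class I loading, 3 were higher and 6 lower in COPD than in control lungs (8.23% and 66.4% of all genes). In WDD against COPD lungs 3 were higher and 2 lower (57.1% and 6.63%), and in WDD against control lungs 0 were higher and 2 lower (6.35% and 31%). After median-of-ratios scaling the counts were 10 and 0, 1 and 11, and 1 and 0. Over all genes that scaling gave 30% higher and 32.6% lower, 23.3% and 21.4%, and 15.7% and 17.2%, in the same order. Ifngr2, a chain of the interferon gamma receptor, had 20.2, 18.3, 19.3, 18.1 and 21.8 FPKM in WDD, 57.0, 80.0, 69.3, 73.9 and 75.5 FPKM in COPD and 21.9, 21.2, 19.8, 23.98 and 21.4 FPKM in control lungs. The COPD group stood apart from both others, at 1.66 ± 0.12 above control lungs (adjusted p = 7.19e-09, limma), and WDD lungs were lower than COPD lungs (-1.81 ± 0.12); after median-of-ratios scaling these were 2.57 and -2.45. Irf8, a factor of myeloid and B cells, was 1.26 higher in WDD than in COPD lungs, a call lost after that scaling (0.64, adjusted p = 0.0905, limma). Canx, a chaperone of MHC class I, was lower in COPD than in control lungs (-0.86 ± 0.16), with 0.0578 and no call after it. Jak1 and Tapbp were lower in WDD than in control lungs (-0.58 and -0.97), and neither passed after it (-0.30 and -0.69); Tapbp also lost its call without WDD 3 or control 2.

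Markers of cell types that carry the immunoproteasome differed between the groups in both directions; over all genes 8.23% were higher and 66.4% lower in COPD than in control lungs, and 57.1% higher and 6.63% lower in WDD than in COPD lungs. Of 9 tested neutrophil markers, 8 were higher and 0 lower in COPD than in control lungs. In WDD against control lungs 2 were higher and 0 lower (6.35% and 31% of all genes). In WDD against COPD lungs 8 were lower and 0 higher. After median-of-ratios scaling the 8 higher in COPD against control and the 8 lower in WDD against COPD remained in number. Under that scaling 30% of all genes were higher and 32.6% lower in COPD than in control lungs. In WDD against COPD lungs it gave 23.3% and 21.4%. Within the COPD group the summed neutrophil level was highest in COPD 2 and lowest in COPD 5. In that group Psmb10 was highest in COPD 2, with COPD 5 next. Psmb9, Psme2 and Psmb8 were highest in COPD 5, with COPD 2 next. Of 9 T and NK cell markers, 8 were lower in COPD than in control lungs and 6 higher in WDD than in COPD lungs, with sums of 152 to 199 FPKM in WDD, 32.1 to 90.2 in COPD and 143 to 178 in control lungs; after median-of-ratios scaling 3 were lower and 6 higher in these comparisons. Of 7 B and plasma cell markers 1 was higher and 5 lower in COPD than in control lungs (sums of 659 to 826 FPKM in WDD, 47.5 to 113 in COPD and 238 to 960 in control lungs), and of 6 dendritic cell markers 0 and 5. After that scaling these were 2 and 2, and 1 and 5. Of 7 monocyte and macrophage markers 1 was higher and 3 lower, and of 5 pan-leukocyte markers 2 and 2 (3 and 3, and 3 and 0, after scaling). Of 8 lung epithelial markers 7 were lower in COPD than in control lungs and 8 higher in WDD than in COPD lungs, and the 4 tested endothelial markers were all lower and all higher in the same comparisons. After scaling 5 and 7 of the epithelial and 3 and 3 of the endothelial markers passed in those directions; Cldn5 is listed at 0 in all libraries. The part of these cell types in the differences of the proteasome genes was not tested.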

How the data were processed

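The deposited values are FPKM, computed by the authors for 22250 rat genes in 15 lung libraries; the submitters' processing notes name cutadapt, HISAT2 and StringTie, without versions or order, and the build Rnor_6.0. Strand use is not given in the sources used here. FPKM is relative: where a few genes take a larger share of a library, all others fall. Depth per sample is known only relative to control 2 (0.880 to 1.11), so no counting intervals are given.

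Values were used as log2(FPKM + 1) for the 13172 genes that reached 1 FPKM in 5 or more libraries. One limma model (version 3.58.1 in R 4.3.3, moderated variances with an intensity trend) held all 15 libraries; tests were two-sided, adjusted over all genes by Benjamini-Hochberg, and called at an adjusted p under 0.05. A fold change on this scale understates that of low genes. Library ratios were compared with exact permutation tests in Python 3.11.15 (numpy 2.4.6, scipy 1.17.1). Tables and figures used pandas 2.3.3 and matplotlib 3.10.9. Both tests were tested on simulated data. Promoters and pseudogenes come from RefSeq GRCr8, a later assembly than that of the files, and were matched by symbol; Psma7, Psmb11, Psmd6, Psmd12 and Psmd14 had no promoter entry.

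The members, gene lists, tests and alternatives were chosen with earlier results of these data known. Named members are the inducible genes with their counterparts, Psme4, Psmf1 and Pomp, the 2 lowest and 2 highest of each other class in COPD against control, and up to 4 genes of lowest p per list and comparison; others are marked where named. Alternatives were median-of-ratios scaling, quantile normalisation, the FPKM sum without mitochondrial genes, pseudocounts of 0.1 and 0.5, no filter or a mean FPKM of at least 5, weights per library, a fit of just the 2 groups, a replicate block, each library left out and, added after seeing the data, dropping both COPD 1 and COPD 5. Libraries of the same number in different groups were not paired: their deviations correlated above 0.1 in 1 of 15 cases. No 2 libraries of a group shared equal values.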

Additional observations from a re-analysis of the deposited data

Results flagged for a closer look

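A library that stood apart from the other 4 of its group was found in 14 of 150 groups of 5, where chance alone gives 1 in 20, or 7.5. Control 1 accounted for 7 of them, each time as the highest control. It had 145 FPKM of Psma7 against 102 to 108 in the other controls, 137 of Psmb1 against 101 to 103, and 172 of Psmb4 against 113 to 118. It also had 18.9 FPKM of Psmb7 against 11.9 to 13.4, 56.7 of Psmb9 against 31.6 to 36.2, 92.1 of Psmb10 against 56.0 to 62.3, and 68.3 of Psmc4 against 51.8 to 54.3. These genes of the core and the cap were thus high in the same library. Control 1 also had the lowest long-minus-short transcript value of the controls, -2.73 against -2.03 to -1.47 on the log2 scale; the part of this in its proteasome levels was not tested.

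Among WDD lungs, WDD 3 was low for Psmc1 (83.9 FPKM against 100.1 to 104). WDD 5 was high for Psmd8 (64.9 against 56.5 to 57.5) and Psmg3 (24.2 against 18.99 to 20.1), and WDD 2 for Psmd9 (23.9 against 19.6 to 20.5) and Psmd11 (21.5 against 18.1 to 18.9). WDD 2 also had the lowest log2 ratio of Psmb8 over Psmb5, -0.79 against 0.02 to 0.32. Among COPD lungs, COPD 5 had a log2 ratio of Psmb9 over Psmb6 of 1.88 against -0.14 to 0.36, the library in which Gbp2, Irf1 and Tap1 were also highest.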

How the results depend on the processing

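How the libraries were scaled decided most counts. Scaled by median of ratios, 46 members were higher and 0 lower in COPD against control, 0 and 28 in WDD against COPD, and 31 and 0 in WDD against control. Quantile normalisation gave 34 and 1, 0 and 13, and 26 and 1 in the same comparisons. Leaving mitochondrial genes out of the sum gave 3 lower in COPD against control, and 2 higher and 14 lower in WDD against COPD. Library weights gave 5 lower for WDD against COPD, and 30 higher and 5 lower for WDD against control. Fitting only the 2 groups gave 26 higher for WDD against control. Shares over all genes were not taken for library weights, the 2-group fit, the replicate block or single libraries left out. The counts under those settings therefore have no background beside them. Without COPD 1 and COPD 5, 8 were lower in WDD against COPD.

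With each library left out, 10 to 17 members were higher and 5 to 8 lower in COPD against control, 8 to 19 and 2 to 4 in WDD against COPD (19 without COPD 2, 4 without COPD 1), and 9 to 21 and 1 to 3 in WDD against control (9 without WDD 5 or control 4, 10 without control 3, and 1 lower without control 4). The replicate block gave 11 higher and 5 lower, 10 and 2, and 12 and 2 in those comparisons; the numbers do not pair the libraries. For the ratios no block was run, since an exact sign-flip permutation test of 5 pairs cannot go below p = 0.0625.

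Changes of direction were followed for 132 gene results, which do not cover all members. Psmc3, Psmd3 and Psmd13, outside that set, also turned in WDD against COPD under median-of-ratios scaling, as given above. Within the set, values that passed as deposited, under the alternative or in both, and whose direction turned were, for COPD against control under median-of-ratios scaling, Psma4 (0.61), Psmc2 (0.74), Psmc6 (0.59), Psmd1 (0.41), Psmd2 (0.34), Psmd5 (0.29), Psmd10 (0.12), Psme3 (0.87), Psme4 (0.75), Psmf1 (0.60), Psmg3 (0.77) and Canx (0.0578). Under quantile normalisation they were Psma4 (0.50), Psmc6 (0.27), Psmd1 (0.0204), Psmd5 (0.17), Psmd10 (0.37), Psme3 (0.63), Psmg3 (0.78) and Uba6 (0.0195). For WDD against COPD under median-of-ratios scaling they were Psma4 (-0.55), Psma6 (-0.46), Psmb1 (-0.20), Psmc2 (-0.14), Psmc5 (-0.42), Psmc6 (-0.35), Psmd1 (-0.44), Psmd2 (-0.45) and Psmd5 (-0.22), and under quantile normalisation Psma4 (-0.40) and Psmd5 (-0.0947). Median-of-ratios scaling moves all genes of a library together; the cause was not tested otherwise.

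Psmb9 over Psmb6 kept its sign under all alternatives run; without COPD 1 and COPD 5 it stood at 0.74 (COPD against control) and -0.44 (WDD against COPD), adjusted p = 0.0643 by exact permutation. With each library left out it was 0.70 to 1.20, -0.90 to -0.39 and, for WDD against control, 0.27 to 0.37. Psmb10 over Psmb7 in COPD against control was -0.73 under quantile normalisation (exact permutation, adjusted p = 0.0286) and -0.56 to -0.20 with a library left out. In WDD against control it was -0.40 to -0.31 with a library left out. Depth per library is unknown, which limits what low genes such as Psmd10 and Ifng can show.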
